A study of Mus musculus with 2 samples.

Results

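The 34 genes described here encode subunits of the vacuolar ATPase (V-ATPase, the proton pump of the lysosome), lysosomal proteases and other lysosomal proteins, and the transcription factor TFEB. They were chosen by name, and their accessible sites were followed in 2 ATAC-seq libraries of mouse bone marrow-derived macrophages (BMDMs). A peak was counted for a gene when its summit lay within 100 kb of an end of that gene and no other protein-coding RefSeq gene had a nearer end. By this rule 61 of 77060 peaks in the untreated list and 74 of 37725 peaks in the R848 list belonged to the 34 genes, out of 21883 protein-coding genes. Wild-type marrow cells had been grown in M-CSF at 20 ng/ml, and both groups carried that treatment. The untreated group was 1 library at 0 h, and the R848 group was 1 library taken 2 h after R848 (resiquimod, an agonist of Toll-like receptor 7) was added at 100 ng/ml. Mouse strain, age and sex, and whether marrow of several animals was pooled, are not stated in the sources used here. With 1 library per group there was no test between groups, and each difference below is a difference between these libraries.

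The V-ATPase is built of a V1 sector in the cytosol, which splits ATP, and a V0 sector in the membrane, through which protons pass into the lumen. The acid it makes activates cathepsins and other hydrolases that digest what a macrophage has taken up, and Toll-like receptor 7 itself signals from acidified endosomes, where proteases cut its ectodomain. TFEB and its relatives TFE3 and MITF bind an E-box in the promoters of many lysosomal genes, known as the CLEAR element, and raise their transcription together.

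That element was looked for in RefSeq promoters of the GRCm38.p6 build, each running from 250 bases before to 50 bases after a gene start. Promoters were found for 26 of the 34 genes. The E-box core CACGTG, which reads the same on both strands, was present in a promoter of 11 of these 26 genes and of 8.91% of all 17491 protein-coding genes with an entry. Counted by window, 11 of 33 windows of the lysosome genes and 7.84% of all 21262 windows held it. The longer palindrome TCACGTGA, which contains the core and again reads the same on both strands, was present in 6 of the 26 genes and in 1.41% of all genes. The genes with the palindrome were Atp6v0d1, Atp6v0e and Atp6v1a of the pump, the proteases Ctsa and Ctsd, and Mcoln1, which encodes a calcium channel of the lysosomal membrane. Among all genes with a peak at the start in both lists, 13.4% held the core and 2.64% the palindrome. A match is a stretch of letters and is not evidence of binding. The element is known from promoters of lysosomal genes, so its share among genes chosen as lysosomal is no independent result. The counts at the 26 genes use sequence alone and say nothing about either library.

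The promoter stretches with the palindrome are shown because they carry this pattern, and they start at least 100 bases before the gene start and end 30 bases from it. They are RefSeq sequence on the gene's own strand, and the capitals mark the palindrome.
Atp6v0d1 (chr8:105566035-105566164, minus strand): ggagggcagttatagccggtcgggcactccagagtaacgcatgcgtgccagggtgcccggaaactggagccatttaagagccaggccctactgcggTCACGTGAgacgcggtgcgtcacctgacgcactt
Mcoln1 (chr8:3500419-3500548, plus strand): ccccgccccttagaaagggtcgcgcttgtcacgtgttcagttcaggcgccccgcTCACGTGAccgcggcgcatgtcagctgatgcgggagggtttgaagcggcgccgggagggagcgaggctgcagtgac
Atp6v1a (chr16:44139230-44139411, minus strand): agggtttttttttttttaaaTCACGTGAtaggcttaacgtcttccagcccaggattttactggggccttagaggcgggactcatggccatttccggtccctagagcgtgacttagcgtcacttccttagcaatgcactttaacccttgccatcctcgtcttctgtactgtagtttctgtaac
Ctsd (chr7:142387798-142387946, minus strand): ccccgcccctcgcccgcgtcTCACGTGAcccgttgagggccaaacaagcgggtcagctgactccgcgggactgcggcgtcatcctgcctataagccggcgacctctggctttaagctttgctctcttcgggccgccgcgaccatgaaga
Atp6v0e (chr17:26676296-26676425, plus strand): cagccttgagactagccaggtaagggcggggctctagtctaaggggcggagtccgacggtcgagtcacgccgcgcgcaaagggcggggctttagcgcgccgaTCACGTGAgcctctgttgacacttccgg
Ctsa (chr2:164833673-164833802, plus strand): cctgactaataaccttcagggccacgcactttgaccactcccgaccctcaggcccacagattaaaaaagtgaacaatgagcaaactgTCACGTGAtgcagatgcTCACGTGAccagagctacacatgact
In Atp6v0d1 and Atp6v0e the palindrome lay at the gene start itself, 0 and 6 bp from it. In Mcoln1 it lay at -42 bp, in Ctsd at -95 bp and in Atp6v1a at -128 bp, where negative positions are upstream. Ctsa held 2 copies, on either side of the second of its RefSeq starts.

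Lamp1, which encodes a heavily glycosylated protein that lines the lysosomal membrane, held 4 copies of the core and no palindrome. Only 5 of the 21262 promoter windows held 4 or more. Its promoter is shown, as a choice made after the count was seen, with the 4 cores in capitals.
Lamp1 (chr8:13159061-13159190, plus strand): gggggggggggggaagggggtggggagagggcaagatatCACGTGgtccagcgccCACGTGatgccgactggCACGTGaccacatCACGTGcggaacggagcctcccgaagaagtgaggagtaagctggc
The cores lay at -58, -42, -25 and -12 bp from the Lamp1 start.

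**Figure D1:**
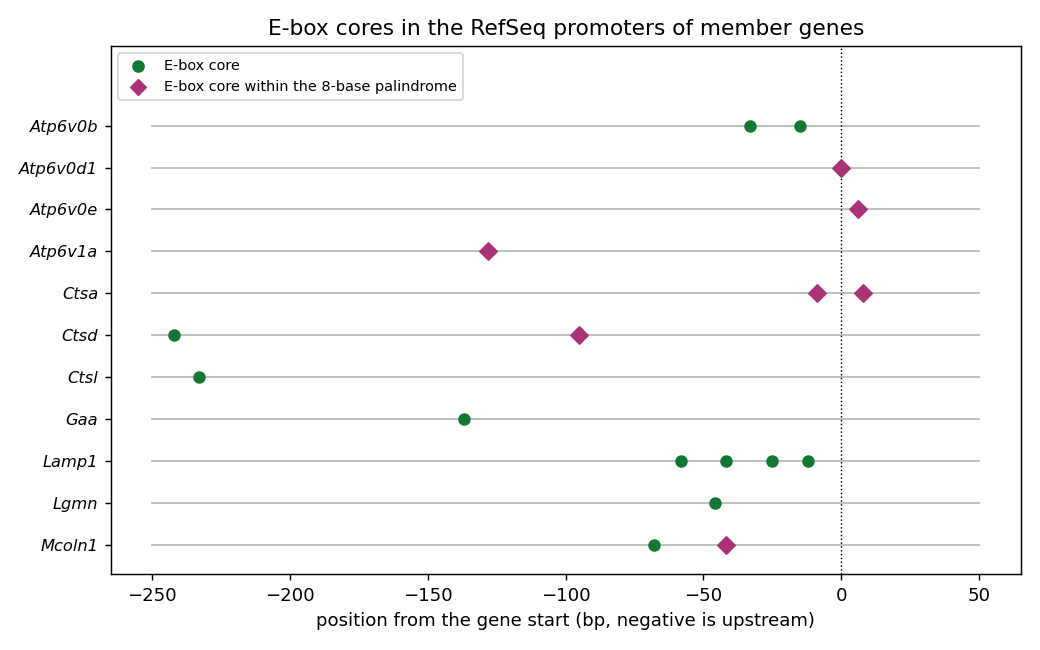
Position of each E-box core (x axis, bp from the gene start, negative upstream) in the promoters of the 11 lysosome genes that hold one (y axis), with diamonds for cores inside the 8-base palindrome. Lamp1 has 4 cores, at -58 to -12 bp, and the palindromes of Atp6v0d1 and Atp6v0e lie at 0 and 6 bp.

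Motifs of other factors were counted in the same windows. The PU.1-type GAGGAAGT was in 2 of 26 genes, the cathepsin genes Ctsc and Ctss, against 3.64% of all genes. AP-1-type TGACTCA was in 2 of 26, Neu1 and Psap, against 5.4%. The NF-kB-type sequences GGGACTTTC and GGGAATTTC were in 0 of 26, against 0.412% and 0.274%, which says only that these letters are not in the windows searched. ETS-type CGGAAG was in 6 of 26 against 23.5%, NF-Y-type CCAAT in 8 against 42.3%, and the Sp-type GGGCGG in 19 against 49.2%. Among all genes with a start peak in both lists the shares were 40.9% for ETS, 49.0% for NF-Y and 76.3% for Sp. For PU.1 and AP-1 they were 3.65% and 3.67%. By that background the Sp-type count was not raised. All were searched on both strands, and none of these motifs contains another.

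Single peaks were shallow. The fold is the authors' own value, tags at the summit relative to the local background of that library. Folds and tags of the 2 libraries are set side by side below without any scaling between the libraries. The pileup was recovered from the deposited fold and p. The median peak held 7 tags in the untreated and 8 in the R848 list, over a genome-wide background of 0.968 and 1.36 tags, and the smallest called pileup was 4 and 5 tags. A missing peak therefore means fewer tags than the caller needed, not closed chromatin. A pileup of 7 tags has a 95% exact Poisson interval of 2.81 to 14.4 tags, which covers counting error only. Gene-start peaks were present at 39.6% of all genes in the R848 list and at 30.2% in the untreated list. Of macrophage markers 7 of 10 had one with R848 and 5 of 10 untreated, Csf1r and Adgre1 in the R848 list alone. Mertk, Fcgr1 and Cd14 had none in either list. Neutrophil markers had one at 3 and 2 of 6 (S100a8 and S100a9 in both lists, Camp in the R848 list), near the shares of all genes. At most 1 marker had one in either list for T and NK cells (of 8), B cells (of 6), erythroid cells and megakaryocytes (of 6), stromal and endothelial cells (of 6) and osteoclasts (of 8), and the part of other cells in the results was not tested.

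Gene starts were compared first. A peak with its summit within 1 kb of a gene start was present in both lists for 21 of the 34 genes, against 26.2% of all protein-coding genes. With lists of equal length 14 of the 34 had one in both, with a q of at most 0.05 in both lists 18 had, and with a −log10 q of at least 5 in both lists 3 had. In the untreated list 23 had one, against 30.2% of all genes, and in the R848 list 26 had one, against 39.6%. All 21 pairs of peaks overlapped. The start peaks of Atp6v1f, Ctsc and Ctsz in the untreated list and of Hexa in the R848 list had a q above 0.05. Atp6v1e1, Ctsh, Lamp1, Hexa and Tfeb, 5 members, had a start peak in the R848 list alone (13.3% of all genes), and Psap and Neu1 had one in the untreated list alone (3.97% of all genes). No start peak was found in either list for Atp6v0d2, Atp6v0e, Ctsa, Ctsk, Ctss and Gaa, against 56.5% of all genes. For the 8 members without a promoter entry (Atp6v0d2, Atp6v1b2, Atp6v1c1, Atp6v1g1, Atp6v1h, Ctsb, Ctsh and Npc1) and for other genes without one, either gene end was taken as a start. Among the 26 with an entry, 15 had a start peak in both lists.

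Start peaks held more tags in the R848 library, here and over the genome. Among the 21, the median fold was 4.57 in the untreated and 5.56 in the R848 list, and the median pileup 8 and 14 tags. Over all 5744 genes with a start peak in both lists the medians were 4.67 and 6.36 for the fold, and 9 and 16 tags. The fold was the higher one in the R848 list for 16 of 21 members and for 78.0% of all such genes, and the R848 peak was the wider one for 18 of 21 and for 76.8%. These shares lie near the background, so they are no result about the lysosome genes.

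**Figure D2:**
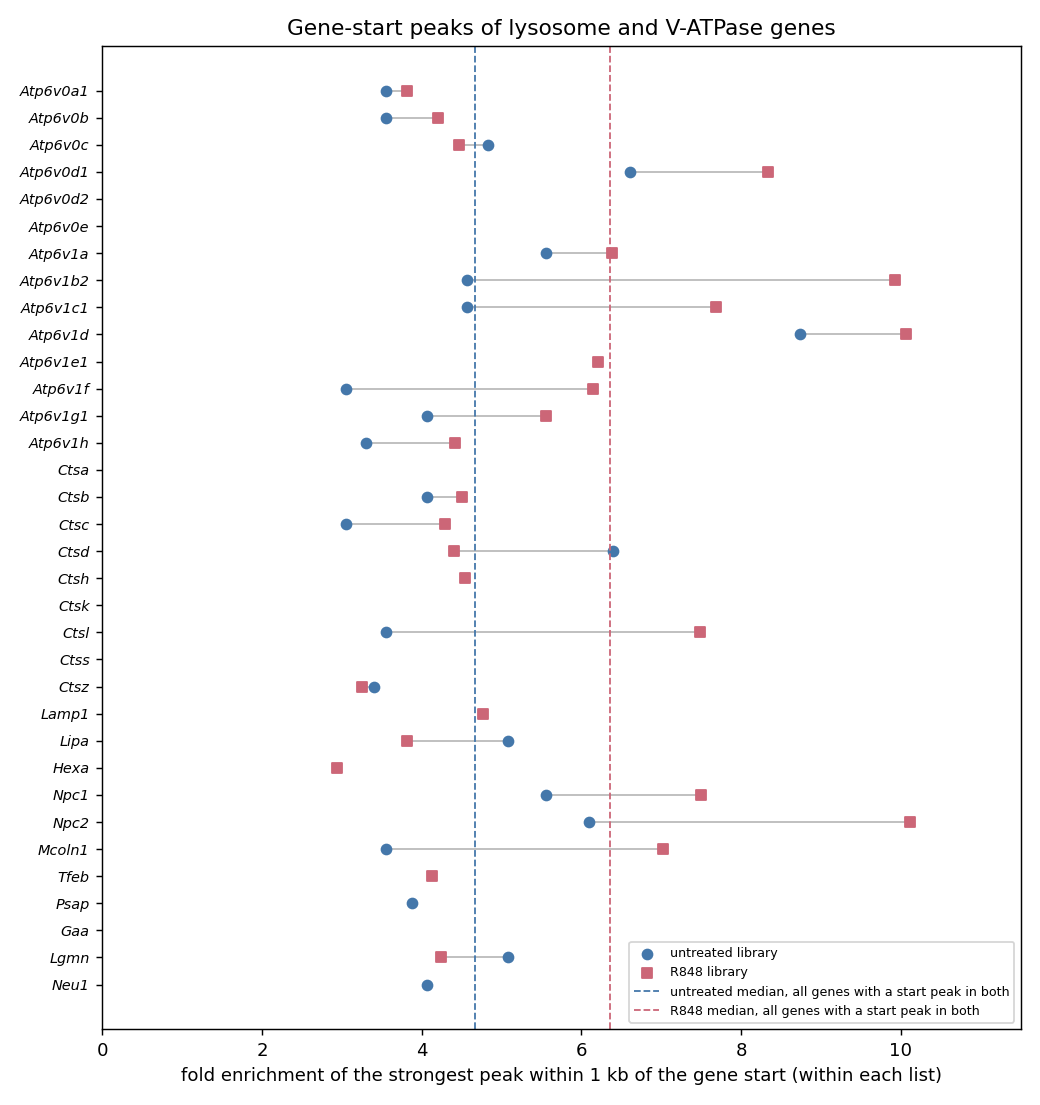
Fold enrichment of the strongest peak within 1 kb of the gene start (x axis, each fold relative to the background of its own library) for the 34 genes (y axis), with circles for the untreated and squares for the R848 library and dashed lines at the medians of all genes with a start peak in both lists (4.67 and 6.36). Npc2, Atp6v1d and Atp6v1b2 stand farthest right with R848, and 6 genes have no start peak in either list.

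All 8 V1 genes had a start peak in the R848 list and 7 also in the untreated list. Atp6v1d, which encodes a subunit of the central stalk, had the strongest untreated start peak of the 34 genes, with a fold of 8.74 and 17 tags (chr12:78861475-78862211), and a fold of 10.1 and 30 tags (95% interval 20.2 to 42.8) with R848 (chr12:78861322-78862270). Atp6v1b2, an ATP-binding subunit of the catalytic head, had 8 tags (fold 4.57) in the untreated library at chr8:69088568-69088847. With R848 it had 27 tags (fold 9.93) at chr8:69088475-69088832. Atp6v1c1, a subunit at the interface between the sectors, had 8 tags and a fold of 4.57 (chr15:38661761-38662163) in the untreated library. It had 19 tags and a fold of 7.69 with R848 (chr15:38661655-38662137).

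Atp6v1a, the catalytic subunit, had 10 tags (fold 5.56) untreated and 24 tags (fold 6.38) with R848, and its R848 peak stood on a raised local background of 2.92 tags. Atp6v1f had 5 and 14 tags, Atp6v1g1 7 and 13 tags, and Atp6v1h 7 and 11 tags, in the untreated and the R848 library. These are the genes of smaller or regulatory V1 subunits. Atp6v1e1, which encodes a subunit of the peripheral stalk, had no untreated peak at its start. Its R848 peak there, 97 bp from the start at chr6:120822409-120822986, held 17 tags (9.90 to 27.2) with a fold of 6.21 and was the strongest R848-only peak of the 34 genes.

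V0 genes were less uniform, with start peaks in both lists at 4 of 6. Atp6v0d1, the broadly expressed d subunit that joins the sectors, had a start peak of 12 tags (fold 6.60, chr8:105566039-105566312) untreated and of 24 tags (fold 8.33, chr8:105565947-105566352) with R848. Its relative Atp6v0d2, known from osteoclasts and some macrophages, had no start peak. It had 1 untreated-only peak of 6 tags, 18408 bp inside the gene, and 1 R848-only peak of 7 tags, 4564 bp outside it. Atp6v0c, which encodes a proteolipid of the rotating ring, had 10 and 14 tags at a start. Atp6v0b, another ring subunit, had 6 and 9 tags, and Atp6v0a1, a subunit of the proton path, 6 and 8 tags, with summits 898 and 912 bp from its RefSeq start. Atp6v0e had no peak in either list, although its start holds the palindrome.

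The 10 protease genes had 25 untreated peaks, of which 11 were overlapped by an R848 peak, and 30 R848 peaks, of which 19 were R848-only. Over all assigned R848 peaks 66.9% were R848-only. Ctsl, a cysteine protease, had 6 tags (fold 3.56, chr13:64370347-64370660) at its start untreated and 18 tags (fold 7.48, chr13:64370047-64370639) with R848. Both of its peaks in each list were shared. Ctsd, the main aspartic protease of the lysosome, had 16 tags at its start in both libraries, with a fold of 6.39 over a local background of 1.66 tags untreated, and a fold of 4.40 over 2.86 tags with R848.

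Ctsb, a cysteine protease, had 4 R848-only peaks, and the strongest lay inside the gene with 15 tags and a fold of 4.65 (chr14:63128644-63129330). The other R848-only peaks of Ctsb held 6, 10 and 6 tags, and its 2 untreated-only peaks held 5 and 8 tags and lay outside the gene. Ctsz, a carboxypeptidase, had 1 untreated peak, of 6 tags at its start, and 5 R848 peaks of 9 to 14 tags. Of these, 4 were R848-only. The 4 Ctsz peaks nearest to the start stood on a local background of 3.60 to 3.66 tags, and their folds were 2.81 to 3.25.

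Peaks on such a raised background, at least 2 times the genome-wide one, made up 7 of the 74 R848 peaks of the lysosome genes, 4 of them at Ctsz, 2 at Ctsd and 1 at Atp6v1a. Over all assigned R848 peaks the share was 3.79%. In the untreated list there were 4 of 61, with 3 at Lgmn and 1 at Ctsd, and 13.4% over all.

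Ctsc, which activates granule serine proteases, had the second strongest R848-only peak, 6325 bp outside the gene at chr7:88271554-88271833, with 12 tags and a fold of 5.51. Its start peak held 5 tags untreated and 10 with R848. Ctsh, an aminopeptidase, had an R848-only peak of 10 tags (chr9:90054318-90054815, fold 4.55), the one counted above as its start peak. Its summit lay 225 bp from the gene end with the lower coordinate. An untreated-only peak of 10 tags lay farther inside the gene (chr9:90057558-90057863, fold 5.56). A shared peak 11198 bp outside Ctsh held 9 tags (fold 5.08) untreated and 16 tags (fold 7.21, chr9:90042903-90043261) with R848. Ctss and Ctsk, neighbours on chromosome 3 that encode an antigen-processing protease and the collagen-degrading protease of osteoclasts, had no start peak. Ctss had an untreated-only peak of 10 tags (chr3:95524311-95524671, fold 4.87) beside a shared one of 10 tags untreated and 7 with R848. It also had 2 R848-only peaks, 1 of 6 tags outside the gene and 1 of 9 tags (fold 4.24) inside it.

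Lgmn, which encodes an asparagine-specific protease, had 7 untreated peaks, of which 6 were untreated-only, a number reached or passed by 8.77% of all genes. It had 4 R848 peaks, of which 3 were R848-only, or 1 when summits inside the gene or within 5 kb of it were counted. The strongest untreated-only one held 10 tags with a fold of 4.95 (chr12:102427256-102427816). At the start 9 tags were found in both libraries, with a fold of 5.08 untreated and 4.24 with R848. All 6 untreated-only peaks lay inside the gene, whereas 1 of the 3 R848-only peaks did.

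Tfeb had the most R848-only peaks of the 34 genes. It had 1 untreated peak and 7 R848 peaks, all with summits inside the gene, and 6 were R848-only, a number reached or passed by 1.25% of all genes. They held 9, 10, 10, 10, 6 and 8 tags, with folds of 2.97 to 4.37. The first of them lay 213 bp from a RefSeq start (chr17:47737656-47737878). The shared peak at chr17:47754266-47754610 held 6 tags untreated and 14 tags (fold 6.36) with R848. It was the only Tfeb peak with a −log10 q of at least 5. With gene ends within 20 kb, 3 R848-only peaks were left.

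**Figure D3:**
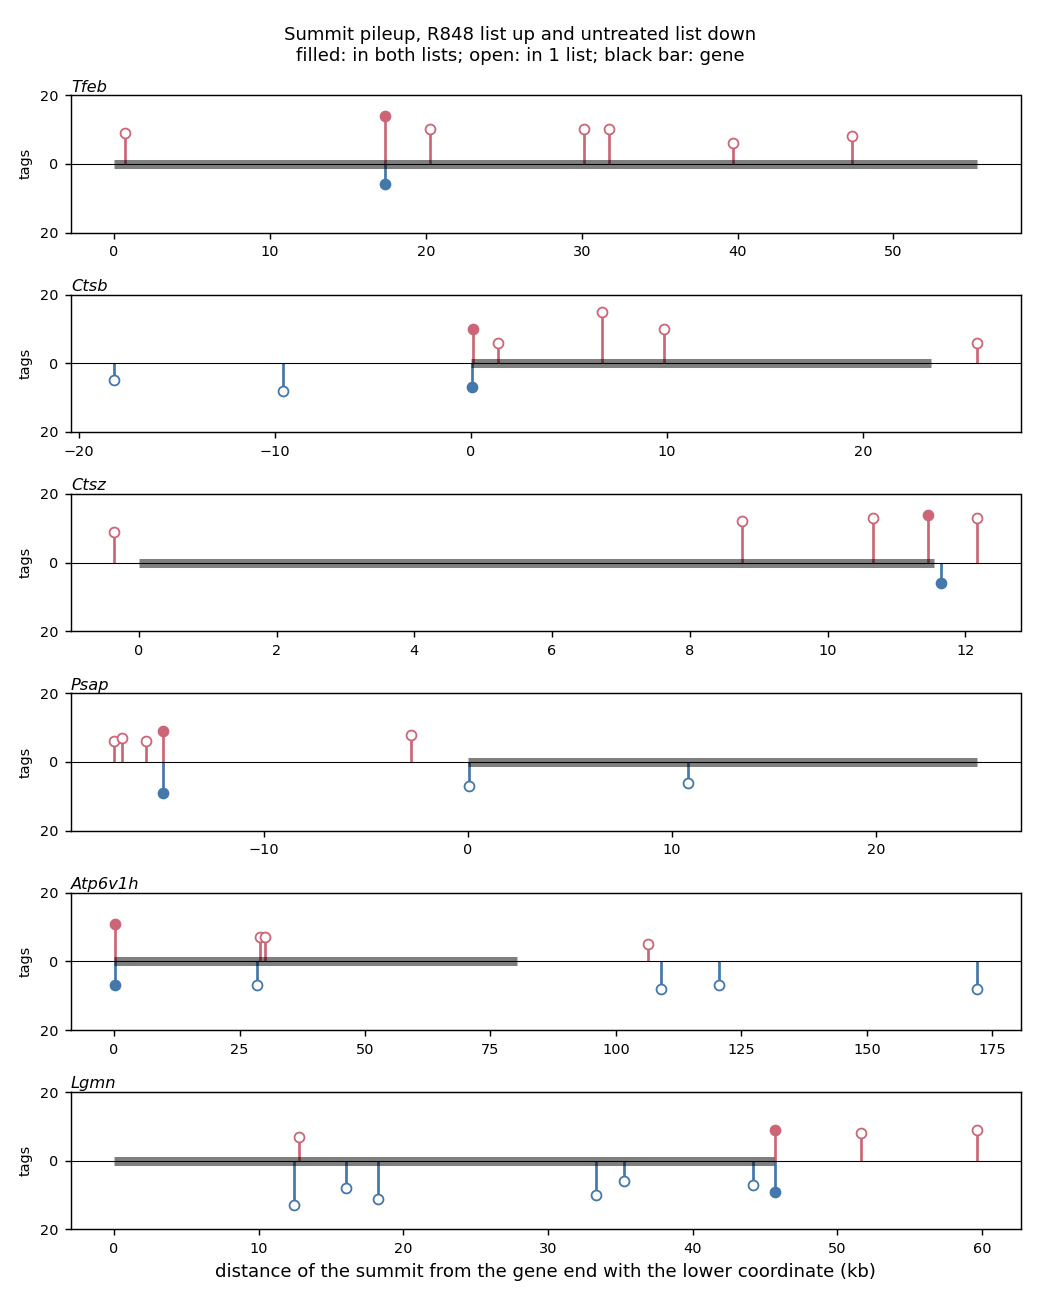
Pileup at each summit in tags (y axis, R848 list upward, untreated list downward) against the distance from the gene end with the lower coordinate in kb (x axis) for the 6 genes that had most R848-only peaks, with filled points for peaks in both lists, open points for peaks in 1 list and a black bar for the gene. Tfeb has 6 open R848 points across its length, and Lgmn has 6 open untreated points inside the gene.

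Cholesterol and membrane genes had start peaks in the R848 list at all 4 loci. Npc2, which encodes the soluble protein that binds cholesterol in the lumen, had the strongest, with 11 tags (fold 6.10) untreated at chr12:84772983-84773317 and 33 tags (fold 10.1, interval 22.7 to 46.3) with R848 at chr12:84772828-84773524. That start is shared with the neighbouring Isca2, to which the untreated peak was assigned, so the site cannot be given to 1 of these genes. Npc2 also had an R848-only peak of 11 tags inside the gene (chr12:84761369-84761672, fold 5.09). Npc1, its membrane partner in cholesterol export, had 11 tags (fold 5.56) untreated and 17 tags (fold 7.50) with R848 at a gene end (chr18:12236175-12236668). Mcoln1 had 6 tags (fold 3.56, chr8:3500318-3500531) untreated and 16 tags (fold 7.02, chr8:3500244-3500850) with R848, and both peaks covered its palindrome.

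Lamp1 had no untreated peak. Its single R848 peak, at chr8:13158830-13159506, had its summit 8 bp from the start and held 11 tags (5.49 to 19.7) with a fold of 4.76. The peak covered all 4 E-box cores, the nearest 5 bp from the summit.

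Of the 5 genes of lipid and sugar breakdown 1 had a start peak in both lists, against 26.2% of all genes. It was Lipa, the acid lipase, with 9 tags (fold 5.08) untreated and 8 tags (fold 3.81) with R848. Psap, which encodes the saposin precursor that activates sphingolipid hydrolases, had an untreated start peak of 7 tags (fold 3.88, chr10:60277238-60277746) and none with R848. It had 4 R848-only peaks of 6 to 8 tags, all outside the gene. Neu1, a sialidase, had 1 untreated-only peak of 7 tags at its start (chr17:34931271-34931472). Hexa, a subunit of beta-hexosaminidase, had an R848-only start peak of 7 tags (fold 2.94, chr9:59539252-59539996) whose summit lay nearer to an end of Tmem202. Gaa, the acid alpha-glucosidase, had no peak in either list.

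Over all 34 genes, 43 of the 74 R848 peaks were R848-only and 31 of the 61 untreated peaks were untreated-only. Over all assigned peaks, 66.9% of the R848 peaks were R848-only and 38168 of 47834 untreated peaks were untreated-only, both larger shares than at the 34 genes. The 34 genes also had a larger part of their peaks within 1 kb of a gene end, where peaks were shared more often. With a q of at most 0.05 in both lists, 29 of 54 R848 and 29 of 53 untreated peaks of the 34 genes were in 1 list only. With a −log10 q of at least 5 in both lists, 16 R848 and 4 untreated peaks of the 34 genes were left. Of these, 13 and 2 were in 1 list only, but an overlapping peak below that limit was not counted. Among the 16, only those of Atp6v1e1, Ctsc and Ctsd had no overlapping peak in the full untreated list. All 4 untreated peaks overlapped a peak of the full R848 list. The numbers of R848-only and untreated-only peaks were 89 and 68 when a peak counted for every gene with an end within 50 kb. Peaks were assigned to 30 of the 34 genes in the untreated list, against 69.5% of all genes, and to 30 in the R848 list, against 63.1%. At least 1 R848-only peak was found at 20 of 34 genes, against 47.2% of all genes, and at least 1 untreated-only peak at 17 of 34, against 56.9%. Per gene there were 1.26 R848-only peaks, against 0.885 over all genes, and 0.912 untreated-only peaks, against 1.74. At least 4 R848-only peaks were found at Tfeb, Ctsb, Ctsz and Psap, and at 4.94% of all genes. The 8 leading R848-only peaks had folds of 4.55 to 6.21 and 10 to 17 tags, with a median fold of 3.44 in that list. The 6 leading untreated-only peaks had folds of 4.55 to 5.59 and 8 to 10 tags, with a median fold of 3.56. Beside those named above, the former included an Atp6v1c1 peak of 11 tags (chr15:38710150-38710540) and a Ctsd peak of 16 tags (chr7:142399328-142399595). The latter included Atp6v1c1 (10 tags, chr15:38730357-38730670), Hexa (8 tags, chr9:59556109-59556355) and Lipa (8 tags, chr19:34488015-34488318).

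**Figure D4:**
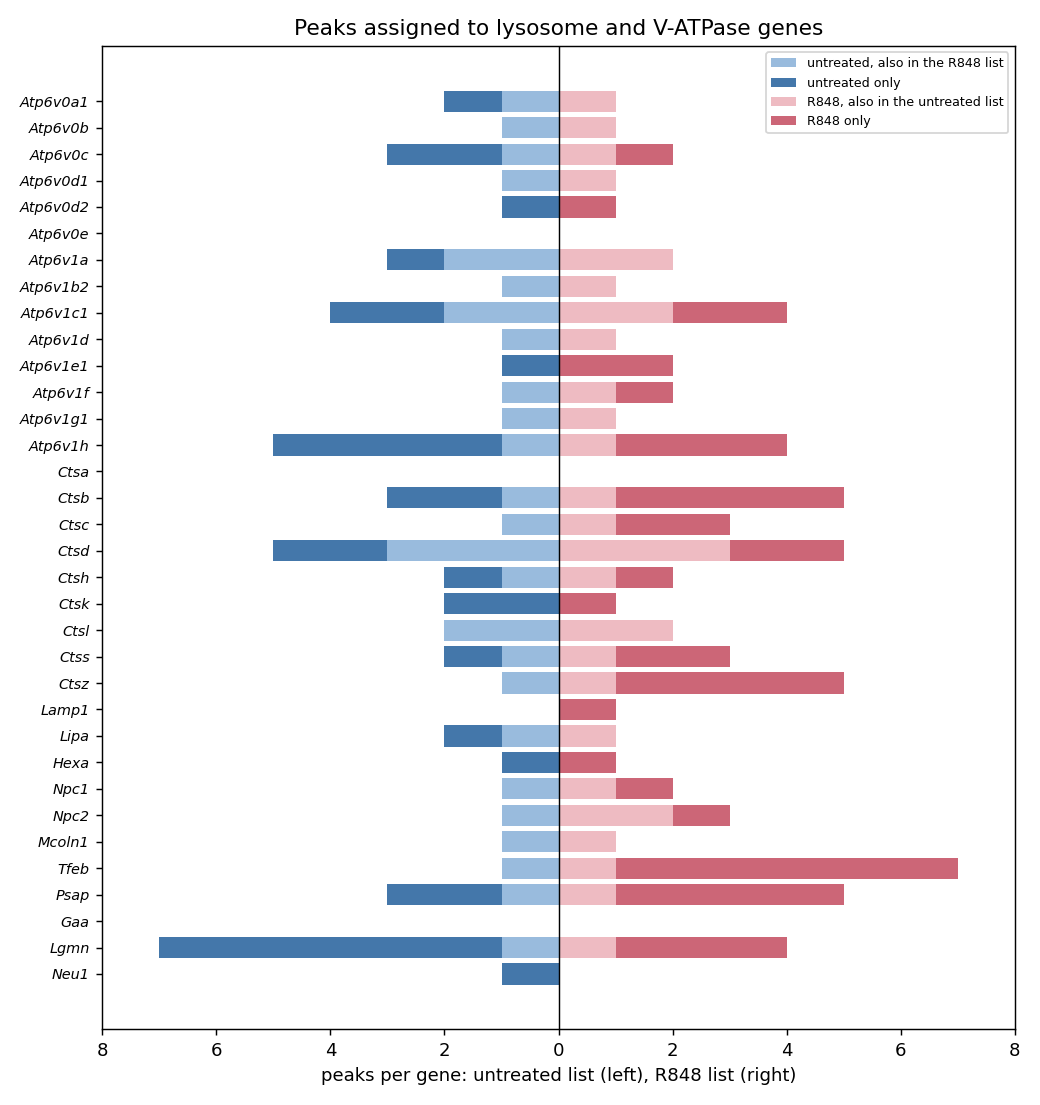
Number of peaks assigned to each of the 34 genes (x axis, untreated list to the left and R848 list to the right; y axis, genes by role), with pale bars for peaks that overlap a peak of the other list and dark bars for peaks in 1 list only. Tfeb has the longest R848-only bar, with 6, and Lgmn the longest untreated-only bar, with 6.

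An R848 peak overlapped 30 of the 61 untreated peaks of the lysosome genes, or 49.2% (95% Wilson interval over peaks 37.1 to 61.4), against 20.2% of all assigned untreated peaks. Of the R848 peaks 31 of 74, or 41.9% (31.3 to 53.3), overlapped an untreated peak, against 33.1%. The share differed with position. Within 1 kb of a gene end 20 of 24 untreated peaks of these genes were overlapped, against 75.3% of all, and farther away 10 of 37 were, against 11.9%. For R848 peaks it was 21 of 29 within 1 kb, against 58.5%, and 10 of 45 farther away, near the 23.4% of all. Peaks within 1 kb were 24 of 61 untreated peaks here and 6267 of 47834 over all genes. In the R848 list they were 29 of 74 and 7976 of 28944. The total shares thus compare unlike mixes of positions. By role the share was 4 of 8 for V0, 9 of 17 for V1, 11 of 25 for the proteases, 2 of 7 for lipid and sugar enzymes, and 3 of 3 for membrane and cholesterol genes, with Wilson intervals that overlap.

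**Figure D5:**
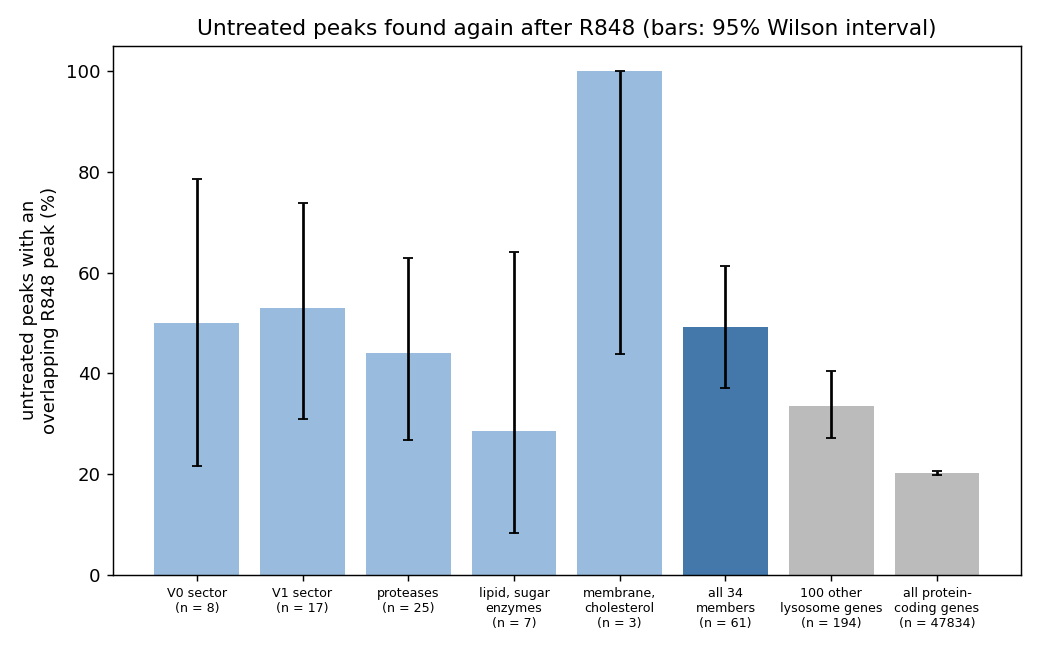
Untreated peaks overlapped by an R848 peak, in percent (y axis), by role group, for all 34 genes, for 100 other lysosome genes and for all protein-coding genes (x axis, n is the number of untreated peaks), with 95% Wilson intervals as bars. The 34 genes stand at 49.2%, the other lysosome genes at 33.5% and all genes at 20.2%, while the single role groups have wide intervals. Shares are not adjusted for position: 24 of 61, 44 of 194 and 6267 of 47834 peaks lay within 1 kb of a gene end.

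Of the 11 genes with a core, 7 had a start peak in both lists, Lamp1 in the R848 list alone, and Atp6v0e, Ctsa and Gaa in neither. Of the 15 without a core, 8 had one in both lists, 3 with R848 alone, 2 untreated alone and 2 in neither. In Atp6v0d1 the palindrome lay 123 bp from the untreated and 71 bp from the R848 summit, and in Ctsd 16 and 90 bp. In Mcoln1 the distances were 76 and 46 bp, and in Atp6v1a 336 and 321 bp. The peaks of these 4 genes covered the palindrome in both lists. For Ctsl and Lgmn the start peaks did not cover the core.

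A list of 100 further lysosome genes was described in the same way. A start peak was present in both lists at 44, in the R848 list alone at 23 and in the untreated list alone at 4. The shares over all genes were 26.2%, 13.3% and 3.97%. The median folds of the 44 were 4.57 untreated and 5.75 with R848. An R848 peak overlapped 65 of their 194 untreated peaks (33.5%, 27.2 to 40.4), against 20.2% of all assigned untreated peaks. Of the 194 peaks 44 lay within 1 kb of a gene end, against 6267 of 47834 over all genes. R848-only peaks numbered 1.13 per gene and untreated-only peaks 1.29 per gene, against 0.885 and 1.74 over all genes. Of the 11 further V-ATPase genes, which include isoforms of restricted tissues, 2 had a start peak in both lists, against 11 of the 14 members of the pump.

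Tpcn2, a channel of the endolysosomal membrane, had the most R848-only peaks of this list, with 8 beside 4 untreated-only ones. Arsb, a sulfatase, and Ppt1, a thioesterase, had 6 each, with 6 and 1 untreated-only peaks. Atp6v0a2, Atp6v1g3, Laptm5, Mcoln2, Galc and Gnptab had 4 each. Over all genes, 1.25% had at least 6 R848-only peaks and 4.94% had at least 4. By fold in the R848 list the strongest start peaks were those of M6pr, the mannose 6-phosphate receptor that sorts hydrolases, with 27 tags untreated and 48 with R848 (folds 12.6 and 10.6), and of Tmem192, with 8 and 31 tags. Tfe3, the relative of TFEB, had 10 and 26 tags, Mfsd8 14 and 35 tags, Hgsnat 6 and 26 tags, and Gm2a 19 and 26 tags. Tfe3 is on the X chromosome, where the R848 list held 820 peaks and the untreated list 4556. None of the 34 genes is on X.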

How the data were processed

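ATAC-seq peak lists of 1 untreated and 1 R848 library were used as deposited. The authors' tools, per the submitters' processing notes, were bcl2fastq 2.19, Bowtie2 2.2.6 and MACS2 2.2.7.1 with the mm10 build, and 15 PCR cycles are given in the labels' protocols. Not given in the sources used here are the settings, the read filters and any Tn5 shift. Both deposited lists, 1 per library, give a fold ratio, a −log10 p, a −log10 q and a score per peak, and the score, 10 times the −log10 p in nearly all peaks, was not used.

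Pileup and local background were solved from fold = (pileup + 1)/(background + 1) and the Poisson tail, which worked for 99.9% of peaks in each list to within 0.1%. Overlap needed 1 bp (bedtools 2.31.1). Other steps used Python 3.11.15, pandas 2.3.3, numpy 2.4.6, matplotlib 3.10.9 and scipy 1.17.1, checked on simulated peaks. Gene ends and promoters were RefSeq's (GRCm38.p6, the same build). The gene table gives no exons, so peaks inside genes were not placed in exons or introns. Members and lists were chosen with earlier results of these data known, all 34 genes are given, and single peaks were named by rank of fold and by number of R848-only peaks. No test was run, since each group is 1 library. Alternatives are in the closing section.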

Additional observations from a re-analysis of the deposited data

How the results depend on the processing

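No paired analysis was possible because each group is 1 library. Numbers of R848-only and untreated-only peaks (43 and 31), the share of untreated peaks found again (49.2%), the genes with a start peak in both lists (21) and the genes with an E-box core (11) were recomputed. With a −log10 q of at least 5 in both lists they were 13 of 16 and 2 of 4 peaks in 1 list only, and 3 genes with both start peaks. Overlapping peaks below that limit were left out there. With every gene within 50 kb counted, the peaks in 1 list only numbered 89 and 68. Chosen after seeing the data, a limit to peaks within 1 kb of any gene start gave a share of 80.0%, and to peaks farther away 27.8%. The other alternatives kept counts within 1.5 times and the share within its interval: lists of equal length gave 53, 22, 47.6% and 14 genes, gene ends within 20 kb gave 36, 25 and 52.8%, and a q of at most 0.05 gave 29, 29, 45.3% and 18 genes. At that q limit the numbers of R848-only and untreated-only peaks, 29 and 29, no longer differed. The E-box count was 8 of 26 in the nearest part of the promoter, against 5.51% of all genes. With 1 flanking base it was 10 of 26, against 5.00% of all genes. Pileups near the calling limit of 4 to 5 tags restrict every statement on a missing peak.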

Other observations

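Some sites near these genes were given to a neighbour by the nearest-end rule. When a summit inside the gene or within 5 kb of it was counted instead, Ctsb had 5 R848-only peaks in place of 4, Hexa 3 in place of 1, Npc1 2 in place of 1 and Atp6v1e1 3 in place of 2. Lgmn had 1 in place of 3, Psap 2 in place of 4, and Ctsd 0 in place of 2, while Tfeb and Ctsz again had 6 and 4. Atp6v0e, Ctsa and Gaa again had no peak in either list. With every gene end within 50 kb, Ctsa had 5 untreated and 6 R848 peaks around it, and Gaa 2 and 1.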
